A study of Mus musculus with 43 samples.

Results

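The response of WT mouse back skin to repeated UVB was described here from 9 of the 43 RNA-sequencing libraries of the series, namely the 5 labelled WT with chronic UVB and the 4 labelled WT without UVB. The genes were the 19170 of 23256 in the table that had a value of 10 or more in at least 4 of the 43 libraries. All mice were female and aged 10 to 13 weeks. Chronic UVB was a daily exposure of 100 mJ/cm2, given 5 times, with the biopsy taken 24 hours after the last exposure. For comparison, 5 WT libraries came from skin that received acute UVB, which was 1 exposure of 300 mJ/cm2 with a biopsy at 24 hours. A further 5 libraries came from skin after chronic UVB and 5 from skin without UVB of NZM mice, the lupus-prone line that the title of the series calls NZM2328. Nothing in the labels defines the strain behind WT, describes a sham exposure of the unexposed mice or states that each library came from its own animal. The p-values therefore measure the spread between libraries, which may be partly technical. That spread was estimated for each gene within all 9 groups of the 43 libraries. These groups include NZM skin after acute UVB and the skin of mice labelled iNZM.

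UVB is the medium-wave part of sunlight that reaches the epidermis and its stem cells and causes sunburn. Keratinocytes divide in the basal layer of the epidermis and then rise through the spinous and granular layers, where they exchange one set of keratins for another, fill with filaggrin and loricrin, and are finally sealed into a cornified envelope cross-linked by transglutaminases. Repeated UVB is known for thickening the epidermis and its horny layer. In mouse skin the epidermis also holds Langerhans cells, which present antigen, and dendritic epidermal T cells, which carry a gamma-delta receptor of almost a single kind. Below it lie the collagen-rich dermis with hair follicles and sebaceous glands, a layer of fat and a thin sheet of skeletal muscle.

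Expression is given throughout as the normalised read count, which is the number of reads of a gene divided by a size factor of its library. Differences are on the log2 scale of the normalised read count plus 1, with the standard error and the adjusted p of limma, and a gene is said to have risen or fallen where that p was below 0.05. Depth ran from 18.49 to 23.79 M reads in the WT libraries after chronic UVB and from 24.44 to 29.51 M without UVB.

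The biopsies differed in the marker RNA they held, and so did libraries of the same group. The defining markers of keratinocytes (Krt5, Krt14, Krt1 and Krt10) summed to between 807910 and 1916450 after chronic UVB and to between 262674 and 511922 without UVB. Not all keratinocyte genes went this way. The 13 genes listed for the anchoring of basal keratinocytes summed to between 59522 and 76591 after chronic UVB and to between 90972 and 127026 without. Those of skeletal muscle (Acta1, Ckm, Myh4 and Tnnt3) summed to between 153075 and 194267 after chronic UVB and to between 579359 and 1190956 without UVB, and those of adipocytes to between 17940 and 26501 against between 40125 and 74811. A library is a mixture in which one share grows at the expense of others, and in a biopsy fewer cells of a type and less RNA per cell cannot be told apart. Of the unexposed libraries, 44 and 45 held far more macrophage and fibroblast RNA than 41 and 43, with macrophage sums of 4449 to 30853 over the group, and 41 held the most muscle RNA. After chronic UVB, library 28 stood above the other 4 in macrophage markers, at 8198 with a group median of 2323. Library 44, without UVB, and library 58, after chronic UVB, held the hair follicle keratins, and 58 also the most melanocyte RNA. The counts of genes and of list members below were therefore repeated without 41 and 43, without 44 and 45, and without each library in turn.

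**Figure D1:**
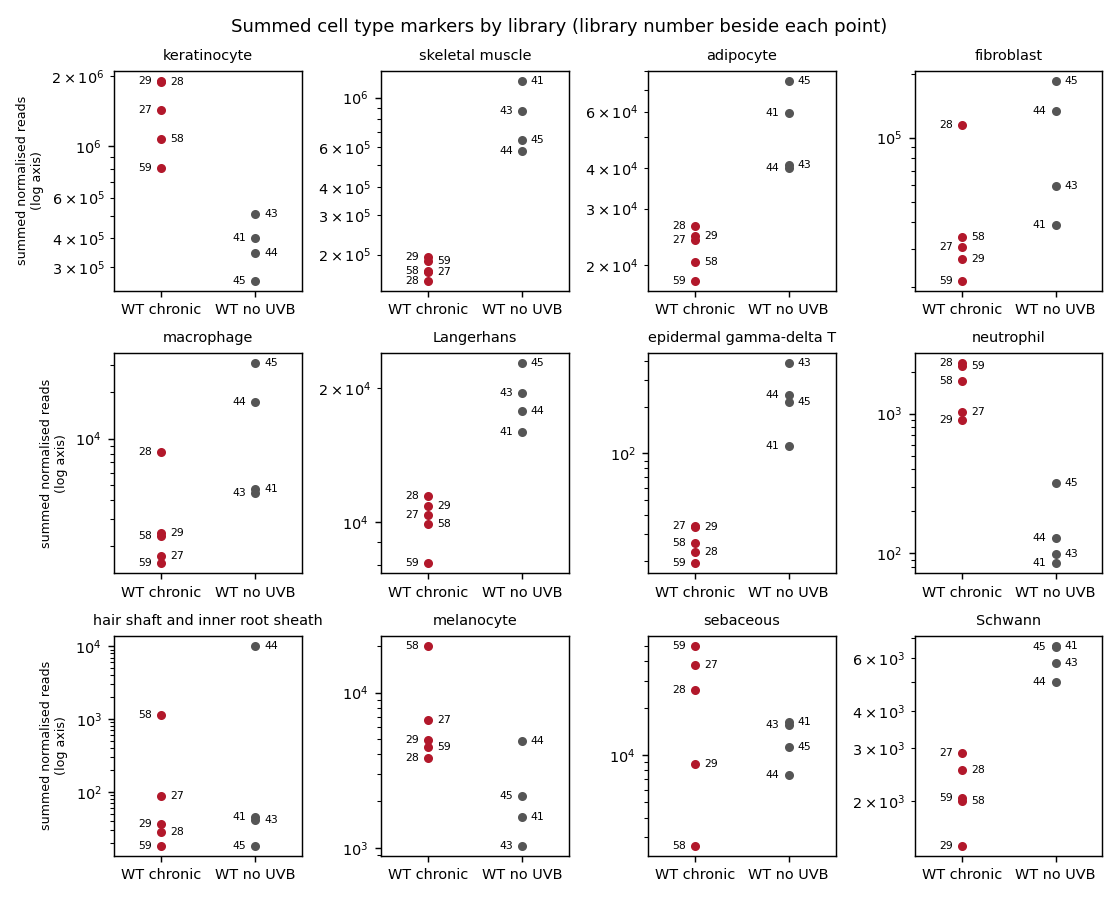
Sums of the normalised read counts of the defining markers of 12 cell types in WT skin, with the 5 libraries after chronic UVB left of the 4 without UVB, the library number beside each point and a log axis that differs between panels. Keratinocyte and neutrophil markers, higher after chronic UVB, did not overlap between the groups. Nor did muscle, adipocyte, Langerhans, epidermal gamma-delta T and Schwann cell markers, which were lower. The Langerhans sum is of Cd207, Epcam and Cd74. Cd74, an antigen-presentation gene, made most of its difference, and Epcam, which keratinocytes also express, was not called. The macrophage and fibroblast sums of library 28 after chronic UVB lay among the unexposed libraries.

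Chronic UVB moved about 1 gene in 3. Of 19170 genes tested, 3532 were higher after chronic UVB than without (18.4%) and 3229 were lower (16.8%), which makes 6761 called genes (35.3%). The libraries of the groups did not overlap in 2671 genes with higher values after chronic UVB (13.9%) and in 2876 with lower values (15%). The median log2 difference over all genes tested was 0.035. Leaving out a single library gave between 2786 and 3557 higher and between 2530 and 3171 lower genes. These shares are the background against which the counts of list members below should be read.

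**Figure D2:**
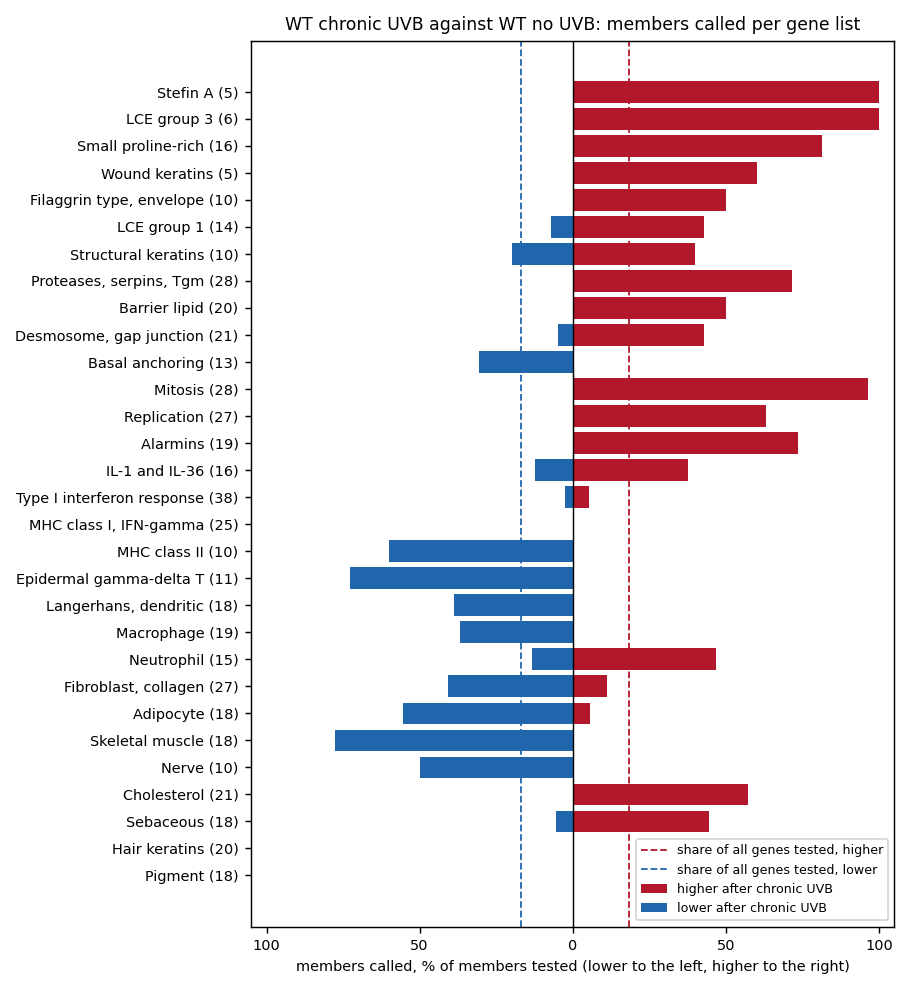
Share of the tested members of 30 gene lists that were called in WT chronic UVB against WT no UVB, with higher members to the right, lower members to the left, and the number tested in brackets; dashed lines mark the shares among all 19170 genes, 18.4% higher and 16.8% lower. The bars of stefin A, group 3 late cornified envelope and mitosis genes reach furthest to the right and that of skeletal muscle genes furthest to the left, while the type I interferon list lies inside them and the hair keratin, pigment and MHC class I lists have no bar.

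The gene with the largest rise was Stfa3, a stefin A gene (chromosome 16, 36450537 to 36455392, minus strand, GRCm38). Stefins are small inhibitors of cathepsins, the cysteine proteases of lysosomes. The promoters of Stfa3 and of 3 other strongly raised genes of the outer epidermis are shown first, because each holds the letters TGANTCA, a relaxed form of the site of AP-1, a transcription factor family active in differentiating and stressed keratinocytes. The consensus site has C or G in the middle (TGAGTCA, or TGACTCA on the other strand), and of these 4 windows only that of Stfa3 holds it. There it lies within the 50 bases after the start of the gene and not upstream of it. The sequences run from 250 bases before the start of the gene to 50 after it, are taken from RefSeq on GRCm38.p6 and are printed on the strand of the gene, with the motif in capitals. Stfa3 is at chr16:36455343-36455642 on the minus strand, Sprr1b at chr3:92438730-92439029 on the minus strand, Rptn at chr3:93393449-93393748 on the plus strand and Flg at chr3:93273296-93273595 on the plus strand.
Stfa3: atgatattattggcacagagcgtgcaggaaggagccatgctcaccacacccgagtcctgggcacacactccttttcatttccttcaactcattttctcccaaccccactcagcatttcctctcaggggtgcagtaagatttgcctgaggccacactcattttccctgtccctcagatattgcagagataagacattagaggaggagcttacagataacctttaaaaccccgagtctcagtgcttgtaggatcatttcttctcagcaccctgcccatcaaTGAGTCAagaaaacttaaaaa
Sprr1b: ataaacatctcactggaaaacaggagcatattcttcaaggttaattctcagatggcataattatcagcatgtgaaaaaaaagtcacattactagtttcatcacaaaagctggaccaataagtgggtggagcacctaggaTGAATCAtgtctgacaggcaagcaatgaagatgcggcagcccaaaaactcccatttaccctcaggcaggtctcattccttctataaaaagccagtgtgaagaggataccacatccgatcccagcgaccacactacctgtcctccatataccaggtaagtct
Rptn: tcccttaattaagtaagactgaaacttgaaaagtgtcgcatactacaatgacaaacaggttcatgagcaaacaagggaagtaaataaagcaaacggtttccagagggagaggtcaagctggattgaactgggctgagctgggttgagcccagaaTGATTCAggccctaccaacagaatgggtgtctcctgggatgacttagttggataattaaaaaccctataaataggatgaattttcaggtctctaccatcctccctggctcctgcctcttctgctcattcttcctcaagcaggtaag
Flg: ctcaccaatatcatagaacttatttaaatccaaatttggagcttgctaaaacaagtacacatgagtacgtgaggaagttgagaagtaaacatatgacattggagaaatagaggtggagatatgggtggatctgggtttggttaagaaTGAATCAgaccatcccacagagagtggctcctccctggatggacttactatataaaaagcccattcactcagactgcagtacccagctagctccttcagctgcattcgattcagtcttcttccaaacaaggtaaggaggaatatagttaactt

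On either strand, TGANTCA was found in 7.81% of the 32851 promoters of the same length. It was found in 9 of 14 matched small proline-rich genes and in 7 of 10 filaggrin-type and envelope genes, but also in 1 of 7 stefin A genes and in none of the 6 group 3 and 13 matched group 1 late cornified envelope genes. The consensus alone, which TGANTCA includes, was found in 5.2% of all promoters, in 8 of the 14 small proline-rich genes, in 2 of the 10 filaggrin-type and envelope genes and in the same 1 stefin A gene, Stfa3. A match of letters is a description of the window and not a measured binding site.

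Stfa3 had normalised read counts of 40591, 34653, 49274, 50217 and 33817 in the 5 libraries after chronic UVB, against 24.4, 48.5, 26.6 and 94.5 in the 4 without UVB. All libraries after chronic UVB were high and close to each other, and all unexposed libraries were low. The ratio of the means was 860, and the log2 difference was 9.91 ± 0.73 (SE, limma adjusted p = 3.01e-12). Its neighbours moved with it. Stfa2 averaged 1138 ± 200 (SD, n = 5) after chronic UVB and 7.37 ± 7.26 (n = 4) in unexposed skin, which differed by 7.77 ± 0.77 on the log2 scale, and Stfa1 lay between 143 and 200 after chronic UVB while 3 of 4 unexposed libraries had no reads of it. Csta1, of the same family, rose by 2.31 ± 0.44, with values of 3690 to 6960 after chronic UVB and 631 to 1714 without. Of the 9 listed genes 5 are in the table, and all 5 passed the filter and rose, while 4 were called in 4 of the 9 single-library omissions. Stefin A copies are so alike that the counting may have split reads between them, and the share of each is uncertain.

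Of the keratins, those that mark wounded and regenerating epidermis rose and one of the resting suprabasal layers nearly disappeared. Krt6b, a keratin that wounded keratinocytes switch on, had 12432, 72975, 16619, 15019 and 27486 normalised reads after chronic UVB, against 82.4, 67.3, 74.2 and 486 without UVB. Library 28 held by far the most after chronic UVB, and library 45 the most of the unexposed ones. The log2 difference was 7.57 ± 0.95 (limma adjusted p = 1.98e-07). Krt16, its partner, lay between 22243 and 84274 after chronic UVB and between 186 and 856 without (6.67 ± 0.76), and Krt6a between 5830 and 20414 against between 1325 and 2268 (2.40 ± 0.45). The other members of the list of 5 were not called: Krt17 averaged 39665 ± 9373 after chronic UVB and 29783 ± 5184 without, and Krt75 averaged 1501 ± 873 and 1737 ± 796.

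Krt77, a type II keratin of the suprabasal layers, had 4917, 1549, 11098, 279 and 1047 normalised reads after chronic UVB, against 153921, 201539, 122428 and 107470 without UVB. The highest library after chronic UVB was well below the lowest unexposed one. The log2 difference was -6.22 ± 0.94 (limma adjusted p = 4.28e-06). Krt1, the classic suprabasal keratin of the same type, went the other way, with 181347 to 761566 after chronic UVB and 33108 to 63607 without UVB (3.27 ± 0.86, limma adjusted p = 0.00349), and its partner Krt10 was not called (1.24 ± 0.76, limma adjusted p = 0.207). Krt14 of the basal layer rose by 2.06 ± 0.35, with 198496 to 338018 against 45003 to 96454. Of the 10 structural keratins tested, 4 rose (Krt1, Krt79, Krt5 and Krt14) and 2 fell, namely Krt77 and Krt80, which fell by 1.32 on the log2 scale. Krt5 was not called without unexposed library 45 (limma adjusted p = 0.0502), without 44 and 45 (0.163) or with only the compared groups fitted (0.0633). Krt80 was not called without 41 and 43 (0.054). Krt15, a keratin of basal and bulge cells, was not called, at 62217 ± 17511 after chronic UVB and 106388 ± 35079 without. It was called lower with sample quality weights (limma adjusted p = 0.0446).

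Cornified envelope genes rose in every family measured, though not evenly. Small proline-rich proteins are envelope precursors that are laid down in large amounts in stressed skin, and 13 of 16 rose. Sprr1b had 6833, 19207, 8713, 9764 and 8490 normalised reads after chronic UVB, against 11.6, 12.9, 2.75 and 106 without UVB, so that the groups lay far apart (9.25 ± 0.94, limma adjusted p = 3.76e-09). Sprr2h (6.93 ± 0.69), Sprr2d (6.33 ± 0.86) and Sprr2a3 (5.04 ± 0.97) rose, and Sprr2e had no reads in any unexposed library and 19.1 to 164 normalised reads after chronic UVB, at least 102-fold higher than a floor of 3 reads over the unexposed group. The Sprr2 genes are near-identical copies, and the share of each is uncertain.

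Late cornified envelope genes fall into groups of which group 3 is known for its induction in wounded and psoriatic skin. All 6 members of group 3 rose and none of them overlapped between the groups. Lce3c had 303 to 645 normalised reads after chronic UVB and 1.98 to 9.54 without (5.83 ± 0.67), Lce3e had 131 to 403 against 0 to 5.56 (7.0 ± 0.95), and Lce3f had 114 to 265 against 0 to 4.77 (6.42 ± 0.87). Of 14 group 1 genes, which belong to normal cornification, 6 rose and 1 fell. Lce1g rose by 4.82 ± 0.68 (1295 to 5818 after chronic UVB, 68.7 to 154 without) and Lce1h by 3.43 ± 0.70, whereas Lce1m fell by 2.80 on the log2 scale, with 958 to 12982 after chronic UVB and 17034 to 37083 without UVB. Without the unexposed libraries 44 and 45, 3 members of group 1 were called higher, and without 41 and 43 Lce1m lost its call (limma adjusted p = 0.0758).

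Filaggrin bundles keratin filaments and yields the amino acids that keep the horny layer moist. Flg (chromosome 3, 93273523 to 93293686, plus strand, GRCm38) had 175361, 44137, 147302, 151858 and 78786 normalised reads after chronic UVB, against 1623, 1502, 840 and 697 without UVB. Its lowest library after chronic UVB was library 28, the one with the most Krt6b. The log2 difference was 6.60 ± 0.79 (limma adjusted p = 7.48e-08). Rptn, which encodes the related envelope protein repetin, lay between 5359 and 26573 after chronic UVB and between 15.1 and 207 without (7.64 ± 0.83). Hornerin (Hrnr, 4.08 ± 0.60), cornifelin (Cnfn, 2.68 ± 0.43) and involucrin (Ivl, 2.25 ± 0.38) rose too, which made 5 of 10. Lor, the gene of loricrin, the main protein of the envelope, was not among them, with 48744 to 316296 after chronic UVB and 85968 to 183987 without (0.42 ± 0.75, limma adjusted p = 0.693), nor was Flg2 (-0.85 ± 0.53, limma adjusted p = 0.211).

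**Figure D3:**
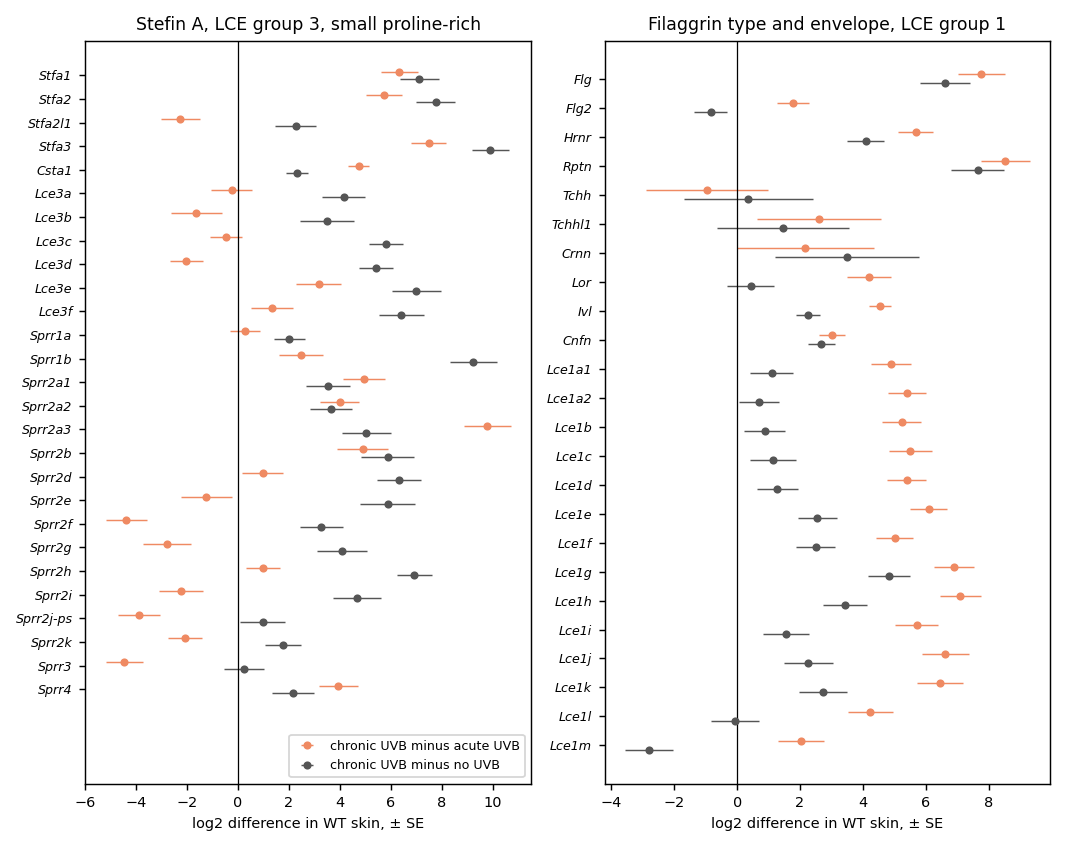
Log2 differences (± SE) in WT skin for stefin A, late cornified envelope, small proline-rich and filaggrin-type genes, with chronic UVB minus acute UVB in orange and chronic UVB minus no UVB in grey. Both comparisons use the same 5 chronic UVB libraries; Stfa3 lies at 7.49 and 9.91, Flg at 7.75 and 6.60, and Lce1m at 2.03 and -2.80.

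The enzymes that cross-link and shed the horny layer rose with the envelope. Of 28 transglutaminases, kallikreins, serpins and related proteins tested, 20 rose. Klk13, a kallikrein, had 2937, 4522, 3333, 3373 and 1263 normalised reads after chronic UVB, against 9.29, 17.8, 26.6 and 56.4 without UVB (6.92 ± 0.55, limma adjusted p = 1.5e-11). Other kallikreins, proteases that cut the bonds between dying keratinocytes, rose less: Klk6 by 5.00 ± 0.56, Klk14 by 3.83 ± 0.69 and Klk8 by 3.01 ± 0.51. Casp14, the caspase that processes filaggrin, averaged 21528 ± 8521 after chronic UVB and 1135 ± 241 without (4.12 ± 0.48). The protease inhibitor genes Serpinb3a (7.36 ± 0.94) and Serpinb12 (4.33 ± 0.83) rose. Serpinb3a had 167 to 820 after chronic UVB and 0 to 4.77 without, and since it has close copies in the genome its share of the reads is uncertain.

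Junction and lipid genes of the barrier moved in part. Of 21 desmosome, tight junction and gap junction genes, 9 rose and 1 fell. The connexin genes led: Gjb6 had 660 to 1539 normalised reads after chronic UVB and 16.2 to 71.4 without (5.10 ± 0.46, limma adjusted p = 2.88e-10), and Gjb2 rose by 4.44 ± 0.77. Of 20 barrier lipid genes, 10 rose, among them Degs2, a sphingolipid hydroxylase (497 to 2061 against 10.1 to 17.8, 6.28 ± 0.81), the fatty acid elongase gene Elovl7 (3.19 ± 0.38), the cholesterol sulfotransferase gene Sult2b1 (2.32 ± 0.27) and the lipoxygenase gene Aloxe3 (1.59 ± 0.41). Without the unexposed libraries 44 and 45, 5 of the 20 were called higher, and Aloxe3 lost its call (limma adjusted p = 0.0608). Genes that anchor basal cells to the basement membrane moved the other way, with 4 of 13 lower: plectin (Plec, -1.16 ± 0.24), dystonin (Dst, -1.13 ± 0.29), the tetraspanin gene Cd151 (-0.82 ± 0.12) and the integrin gene Itgb1 (-0.72 ± 0.16). Dst lost its call without the unexposed 41 and 43 (limma adjusted p = 0.0761).

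Alarmins and antimicrobial proteins are released by stressed epithelium, and 14 of 19 rose. S100a9, a subunit of calprotectin, had 432 to 1133 normalised reads after chronic UVB and 9.15 to 40.6 without (5.25 ± 0.89), and S100a8, the other subunit, rose by 4.06 ± 0.81. Chil1, a chitinase-like protein gene, averaged 1456 ± 895 after chronic UVB and 35.5 ± 12.3 without (5.11 ± 0.60). The acute-phase genes Saa3 (5.03 ± 0.93) and Saa1 (4.37 ± 0.71) rose at lower levels.

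Genes of dividing cells rose as a block. A pair of their promoters is shown with TTTGAA in capitals, the core of the cell cycle homology region at which mitotic genes are known to be held silent in resting cells. Cdc20 is at chr4:118437294-118437593 on the minus strand and Cdk1 at chr10:69352863-69353162 on the minus strand, both from RefSeq on GRCm38.p6.
Cdc20: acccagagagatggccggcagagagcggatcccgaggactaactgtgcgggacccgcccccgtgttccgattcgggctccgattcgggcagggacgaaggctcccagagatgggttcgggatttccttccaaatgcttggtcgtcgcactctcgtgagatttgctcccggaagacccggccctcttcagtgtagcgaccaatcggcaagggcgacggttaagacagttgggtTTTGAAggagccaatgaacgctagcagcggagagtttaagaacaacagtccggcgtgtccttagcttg
Cdk1: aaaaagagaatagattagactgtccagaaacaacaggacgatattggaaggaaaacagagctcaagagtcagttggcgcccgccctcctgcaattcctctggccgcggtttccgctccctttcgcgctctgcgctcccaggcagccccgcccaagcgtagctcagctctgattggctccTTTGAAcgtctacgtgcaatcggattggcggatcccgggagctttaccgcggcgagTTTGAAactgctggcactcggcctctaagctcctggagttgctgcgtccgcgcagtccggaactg

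On either strand, TTTGAA was found in 16 of 22 matched mitosis genes and in 3 of 22 matched replication genes, against 17.9% of all promoters. The shorter CCAAT box was found in 17 of the 22 mitosis genes, against 37.4% of all promoters, and can lie beside TTTGAA in the same window.

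Of 28 mitosis genes, 27 rose, with a median log2 difference of 1.99. Cdc20, which activates the anaphase-promoting complex, had 950, 1483, 1437, 1924 and 1794 normalised reads after chronic UVB, against 120, 252, 375 and 257 without UVB (2.66 ± 0.38, limma adjusted p = 1.81e-06). The lowest library after chronic UVB was above the highest unexposed one. Birc5, the survivin gene of the chromosomal passenger complex, rose by 2.83 ± 0.40, the kinetochore motor gene Cenpe by 2.68 ± 0.47, Ube2c by 2.46 ± 0.46, Cdk1 by 2.27 ± 0.41 and the spindle checkpoint kinase gene Ttk by 1.5 ± 0.23. With only the unexposed libraries 44 and 45 as the comparison, 12 of the 28 were called higher.

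Replication genes rose less, 17 of 27 with a median of 0.85. Rrm2, which makes deoxynucleotides, rose by 2.02 ± 0.27, Tyms, which makes thymidylate, by 1.30 ± 0.24, the thymidine kinase gene Tk1 by 1.85 ± 0.32 and the origin recognition gene Orc1 by 1.71 ± 0.33. The count of replication genes was 11 without the unexposed library 41, 11 without 45, and 8 without 41 and 43 together. Of 11 cell cycle inhibitors, 3 rose and 2 fell, and the count of higher ones lay between 0 and 3 with any single library left out, lowest without chronic UVB 27 or 29. Cdkn1a, the p21 gene, had 3509 to 8294 after chronic UVB and 3216 to 4898 without (0.58 ± 0.23, limma adjusted p = 0.0435), and 6 of the 9 single-library omissions ended its call, with adjusted p of 0.0672 to 0.141: those of 27, 28, 29 and 59 after chronic UVB and of 44 and 45 without.

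Genes of the DNA damage response showed small differences in both directions. UVB makes pyrimidine dimers, which activate p53 and are removed by nucleotide excision repair. Of 26 p53 target genes, 8 rose and 5 fell, beside 18.4% and 16.8% of all genes. The pro-apoptotic gene Pmaip1 lay between 359 and 623 after chronic UVB and between 90.5 and 156 without (1.97 ± 0.26), and Tnfrsf10b, a death receptor gene (1.01 ± 0.28, not called without 41 and 43), and Bax (0.95 ± 0.17) rose as well. The ribonucleotide reductase gene Rrm2b fell by 0.85 on the log2 scale. The number of lower p53 targets was 3 without chronic UVB library 27, 2 without unexposed library 41 and 3 without 43. Of 20 repair genes, 7 rose and 2 fell, with the single-strand binding subunit gene Rpa3 (1.20 ± 0.24), Uvssa (0.98 ± 0.23) and the endonuclease gene Ercc5 (0.95 ± 0.19) higher and the damage sensor Xpc lower (649 to 784 against 967 to 1061, -0.49 ± 0.11).

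Antioxidant genes under NRF2 were also mixed, with 7 of 21 higher and 4 lower, beside 18.4% and 16.8% of all genes. The cystine transporter gene Slc7a11 rose by 3.02 ± 0.47, Gpx2 by 2.35 ± 0.36, the thioredoxin gene Txn1 by 1.23 ± 0.13 and Gclm by 0.96 ± 0.18. Txnrd1, whose enzyme reduces thioredoxin, fell by 1.14 on the log2 scale (968 to 1733 against 2532 to 3085) and Gstm1 by 1.13. In the list of immediate-early and epidermal growth factor genes 6 of 20 fell, among them the growth factor genes Btc (157 to 372 against 889 to 1603, -2.08 ± 0.47) and Egf (-1.62 ± 0.49) and the stress factor gene Atf3 (64.7 to 107 against 212 to 760, -2.05 ± 0.48). That count was 3 without the unexposed library 45 and 2 without 44 and 45, when Atf3 was no longer called (limma adjusted p = 0.102), and Egf lost its call without 41 and 43 (0.0698).

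The cytokine genes that rose belong mainly to the interleukin-36 branch of the interleukin-1 family, which keratinocytes make. Il1f6, which encodes IL-36 alpha, had 802, 1004, 675, 826 and 228 normalised reads after chronic UVB, against 11.6, 7.91, 6.41 and 11.9 without UVB (5.96 ± 0.84, limma adjusted p = 1.54e-06). Every library after chronic UVB was above every unexposed one. Il1f8, the IL-36 beta gene, lay between 711 and 2943 against between 42.1 and 91.7 (4.83 ± 0.66), and Il1f5, the gene of the IL-36 receptor antagonist, rose by 2.31 ± 0.52. In all 6 of 16 members of the IL-1 and IL-36 list rose, Il18 (1.5 ± 0.47) and Il1b (3.24 ± 0.91) included. Il1b lost its call without the unexposed 41 and 43 (limma adjusted p = 0.235) and Il18 without 44 and 45 (0.117). Of the 2 members that fell, Il1r2, the decoy receptor, kept its call in every single-library omission and fell by 3.09 on the log2 scale, with 88.8 to 347 after chronic UVB and 1429 to 2043 without.

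Neutrophil chemokines were low 24 hours after the last exposure. Cxcl2 had 166, 24.0, 62.6, 349 and 37.5 normalised reads after chronic UVB and no reads in any of the 4 unexposed libraries, at least 180-fold higher than a floor of 3 reads over the unexposed group. It was the 1 member of 7 called by limma, while edgeR called 3 and DESeq2 5. Cxcl1 had 6.42 to 23.9 against 2.32 to 4.95, which did not pass the test (1.72 ± 0.75, limma adjusted p = 0.0703). It passed in DESeq2 (adjusted p = 0.025) and in limma when only the compared groups were fitted (adjusted p = 0.0116). Cxcl10, a chemokine for T cells, had 69.7 to 335 against 23.2 to 52.4 (2.36 ± 0.57). In its list of 20 chemokines 4 rose and 3 fell, near the 18.4% and 16.8% of all genes. With single libraries left out the higher ones numbered 2 to 4 and the lower ones 0 to 3, with fewest of the lower ones without unexposed 44 or 45. In the IL-6, IL-20 and tumour necrosis factor list of 22, 2 rose and 4 fell, with Nfkbiz, an inducible regulator of NF-kB, higher (700 to 1284 against 186 to 341, 1.89 ± 0.33) and Il6ra lower (-2.04 ± 0.46). The number of lower members was 2 without chronic UVB library 27 and 2 without 59.

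Genes that answer to type I interferon, whose activity is a known feature of lupus, made few calls in WT skin. Of 38 such genes, 2 rose and 1 fell, beside 18.4% and 16.8% of all genes, with a median log2 difference of 0.001, and the lower call was lost without chronic UVB 59 or unexposed 44 or 45. Mx1, an antiviral GTPase gene, had 159, 79.5, 377, 493 and 80.3 normalised reads after chronic UVB, against 3.48, 7.91, 76.9 and 91.4 without UVB. The unexposed libraries split, with 44 and 45 as high as the lowest libraries after chronic UVB (2.97 ± 0.80, limma adjusted p = 0.00422). Without 41 and 43 Mx1 lost its call (limma adjusted p = 0.375). Ifi35 had 458 to 807 against 294 to 342 (0.92 ± 0.27). With 41 and 43 alone as the unexposed libraries 6 members were called higher, and with 44 and 45 alone 1 was called higher and 6 lower, while DESeq2 on all libraries called 3 higher and 5 lower. Of 25 MHC class I and interferon-gamma genes limma called none, where 2 were lower at an unadjusted p below 0.05 and edgeR and DESeq2 called 1 lower each.

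The genes of resident immune cells of the epidermis fell. Of 11 genes of dendritic epidermal T cells, 8 fell. Tcrg-V5 (chromosome 13, 19192278 to 19192725, GRCm38), the variable segment of their receptor, had no reads in any of the 5 libraries after chronic UVB, against 9.29, 22.8, 5.49 and 15.1 normalised reads without UVB, and was thus at least 19.3-fold lower by a floor of 3 reads over the chronic UVB group. Trdc, the delta constant segment, had 3.27 to 14.7 against 19.7 to 94.0 (-2.54 ± 0.61), Tcrg-C1 fell by 3.15 on the log2 scale, and the T cell receptor chains Cd3e (10.7 to 21.9 against 82.4 to 271, -3.06 ± 0.51) and Cd3g (23.9 to 45.7 against 239 to 464, -3.18 ± 0.50) fell with them. Skint1, a keratinocyte gene needed to select these T cells, was not called (394 to 628 against 248 to 384, 0.73 ± 0.42). It was called higher when only the compared groups were fitted (limma adjusted p = 0.0108). Cd5, which encodes a T and B cell surface receptor and belongs to the wider list of T and natural killer cell genes, rose, with 132 to 185 after chronic UVB and 11.6 to 17.4 without (3.41 ± 0.35, limma adjusted p = 4.7e-09).

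Langerhans cell and antigen-presentation genes fell too. Cd207, the langerin gene that defines Langerhans cells, had 337, 163, 290, 191 and 91.0 normalised reads after chronic UVB, against 1142, 1068, 774 and 802 without UVB (-2.26 ± 0.53, limma adjusted p = 0.00109). Of 10 MHC class II genes 6 fell, with Cd74 at 1365 to 3957 against 9383 to 17299 (-2.28 ± 0.58), and H2-Eb1 fell by 2.02 and H2-Ab1 by 1.64 on the log2 scale. Without the unexposed libraries 44 and 45, 2 of the 10 were called, and H2-Ab1 lost its call without either pair of unexposed libraries (limma adjusted p = 0.0776 and 0.0509). Epcam, which keratinocytes also express, was not called (6602 to 7505 against 4465 to 6720). It was called higher in some alternatives, such as when only the compared groups were fitted (limma adjusted p = 0.0247). Of 18 Langerhans and dendritic cell genes 7 fell, and this count was 3 without chronic UVB library 27, 4 without unexposed 44 and 2 without 45. Mgl2, a lectin of dermal dendritic cells and macrophages, had 41.8 to 170 against 406 to 2448 (-3.65 ± 0.78).

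For macrophages the result depended on which unexposed libraries were used. Lyve1, a hyaluronan receptor of resident macrophages and lymphatic vessels, had 39.7, 73.0, 30.7, 42.9 and 39.6 normalised reads after chronic UVB, against 170, 316, 5137 and 2284 without UVB. All unexposed libraries were above all chronic UVB ones, but 44 and 45 were far above 41 and 43 (-4.33 ± 0.84, limma adjusted p = 0.000155, and 0.0553 without 44 and 45). Of 19 macrophage genes 7 fell, a count that was 16 without 41 and 43, 1 without 44 and 45, 12 without chronic UVB library 28, 4 without 27, 59 or 44, and 3 without 45. Gas6, a ligand for uptake of dead cells, fell by 1.92 on the log2 scale. C1qa, the complement C1q gene, had 553 to 2748 against 2006 to 13939 (-2.38 ± 0.84, limma adjusted p = 0.0259), with adjusted p of 0.0545 to 0.122 without 27, 59, 44 or 45. Adgre1, the F4/80 gene, was not called (-1.95 ± 0.92, limma adjusted p = 0.0956). It was called lower without chronic UVB library 28 (limma adjusted p = 0.0439), without 41 and 43 (0.047) and by DESeq2 (adjusted p = 0.0426). The macrophage markers summed to between 1554 and 8198 after chronic UVB and to between 4449 and 30853 without, and the part of this split in the results was not tested. Of 17 monocyte genes 1 rose and 4 fell, and the lower ones numbered 2 without chronic UVB 27, 29 or 59 or unexposed 44 and 1 without 45. Ly6c1, which endothelium also expresses, fell by 1.76 on the log2 scale, a call lost without 44 and 45 (limma adjusted p = 0.147).

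Neutrophil genes were higher in part. Of 15 tested, 7 rose and 2 fell, and 4 rose without unexposed library 41. Cxcr2, the receptor of neutrophils for the chemokines above, had 56.7 to 290 after chronic UVB and 0 to 21.8 without (4.15 ± 0.88), but S100a8 and S100a9 of this list are also keratinocyte alarmins, Ly6g had no reads in any of the 9 libraries, and Csf3r was not called (83.9 to 429 against 25.5 to 265). Both lower members, Il1r2 and the gelatinase gene Mmp9 (-3.36 ± 0.97, not called without 41 and 43), are also made outside neutrophils. Of 11 mast cell and basophil genes 1 rose, the tryptase gene Tpsab1 (36.4 to 138 against 1.83 to 22.1, 3.30 ± 0.83), while Cpa3, the carboxypeptidase of mast cell granules, was not called (146 to 1109 against 517 to 1031). Of 21 T and natural killer cell genes 2 rose (Cd5 and Trbc2) and 3 fell (Cd3d, Cd3e and Cd3g), where 1 rose in 6 of the 9 single-library omissions, and of 8 B and plasma cell genes 1 rose and 1 fell, with the lower call lost without unexposed 45.

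In the dermis the calls rested on the same split of libraries. Of 27 fibroblast and collagen genes 3 rose and 11 fell, a median of -1.18. The count of lower genes was 19 without 41 and 43, 2 without 44 and 1 without 45, and limma called no lower member without 44 and 45 together. It was 6 without chronic UVB library 27, 5 without 29, 7 without 58 and 5 without 59, and 17 by DESeq2 on all libraries. Dcn, the decorin gene, had 3001 to 13412 after chronic UVB and 11678 to 38128 without (-1.93 ± 0.51, limma adjusted p = 0.105 without 44 and 45), and Col1a1 was not called (-1.01 ± 0.66). Tnc, which encodes tenascin C of healing dermis, rose, with 1068 to 1840 against 197 to 733 (1.80 ± 0.52). Col12a1, of a collagen that lies along fibrils, rose with 1455 to 2147 against 305 to 1612 (1.42 ± 0.36), and neither was called without 41 and 43 (limma adjusted p = 0.12 for Tnc and 0.223 for Col12a1). Among 19 matrix proteases and their inhibitors 3 fell, one being the inhibitor gene Timp3 (-1.26 ± 0.27). Of 18 endothelial genes 3 fell, with between 1 and 4 when single libraries were left out (1 without chronic UVB 29 or 59 or unexposed 45). The shares of lower matrix protease and endothelial genes were near the 16.8% of all genes. Prox1, the regulator of lymphatic identity, had 8.56 to 31.6 against 64.1 to 90.6 (-2.12 ± 0.49). Of 10 nerve and Schwann cell genes 5 fell, the myelin genes Mbp (-1.77 ± 0.44) and Pmp22 (-1.76 ± 0.34) included.

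Fat and muscle genes were lower after chronic UVB. Of 18 skeletal muscle genes 14 fell, with a median of -2.14. Acta1, the actin of muscle fibres, had 96184, 86233, 81255, 79949 and 98874 normalised reads after chronic UVB, against 763760, 541568, 260390 and 305629 without UVB, so that the treated libraries were alike and the unexposed ones spread (-2.27 ± 0.59, limma adjusted p = 0.00301). Without 41 and 43 its adjusted p was 0.089 and 3 of the 18 were called. Actn3 (-2.62 ± 0.58) and Pvalb (-2.52 ± 0.56) of fast fibres fell. Of 18 adipocyte genes 10 fell and 1 rose, the rise being lost in 5 of the 9 single-library omissions, with 6 lower without unexposed 41, 5 without 41 and 43 and 3 without 44 and 45. Lep, the leptin gene, had 88.8 to 429 against 975 to 3850 (-2.99 ± 0.80), Cfd fell by 2.43, Plin1, which coats fat droplets, by 2.14 and the lipase gene Pnpla2 by 1.19 on the log2 scale, and without 44 and 45 the adjusted p of Lep was 0.0733, of Plin1 0.0971 and of Pnpla2 0.0553. The 4 muscle markers made 0.591% to 0.776% of the reads of a library after chronic UVB and 2.59% to 4% without UVB, and the part of this in the values of other tissues' genes was not tested.

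Sebaceous and sterol genes rose with a wide spread. Of 18 sebaceous gland genes 8 rose and 1 fell, the fall being lost in 4 of the 9 single-library omissions. Elovl3, an elongase of sebum fatty acids, had 19909, 19114, 5979, 1946 and 37362 normalised reads after chronic UVB, against 1356, 1029, 568 and 838 without UVB (3.61 ± 0.60, limma adjusted p = 1.98e-05), and library 58 was close to the unexposed ones. The same order, 59 highest and 58 lowest, was seen in Soat1, which esterifies sterols (2.05 ± 0.51). The sebaceous count was 4 without chronic UVB 27, 59 or unexposed 44 and 5 without 28. Of 21 cholesterol genes 12 rose, 7 when only the compared groups were fitted and 6 without 44 and 45, with Sqle at 1.22 ± 0.26.

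Hair keratin and pigment genes were uneven between libraries, and whether they were called depended on the test. Limma called none of 20 hair keratins, none of 33 keratin-associated proteins and none of 18 pigment genes, nor did any pass at an unadjusted p below 0.05. On the same libraries edgeR called none either, while DESeq2 called 5, 29 and 1 lower, and limma called 7 pigment genes higher when only the compared groups were fitted. The hair markers summed to 10195 in unexposed library 44 and 1135 in chronic UVB library 58 and ran from 18.2 to 88.3 in the other 7. Dct, a melanin synthesis gene, had 1986 to 10735 after chronic UVB and 644 to 2756 without (1.52 ± 1.12, limma adjusted p = 0.299), highest in library 58. In the hair cycle list of 25, 3 rose and 1 fell, with the stem cell factor gene Sox9 higher (1.12 ± 0.26) and Cd34, of bulge stem cells and vessels, lower (-1.42 ± 0.34, limma adjusted p = 0.115 without 44 and 45). Without chronic UVB 58, 3 of the list were lower.

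Several smaller groups completed the comparison, and their counts stand beside 18.4% of all genes higher and 16.8% lower. Of 17 retinoid and vitamin genes 4 rose and 1 fell: the retinol dehydrogenase gene Rdh16 rose by 3.40 ± 0.60 and Crabp2 by 1.39 ± 0.32, whereas Aldh1a1, which makes retinoic acid, fell by 2.49 on the log2 scale. Prostaglandin genes split 4 and 4 of 19, with the phospholipase gene Pla2g4e higher (2.11 ± 0.40) and the receptor genes Ptger3 (94.2 to 221 against 1036 to 2296, -3.29 ± 0.48) and Ptgfr (-1.81 ± 0.38) lower, and 2 rose without unexposed 43 or 44. Of 18 clock genes 2 rose and 5 fell, with Hlf, an output factor of the clock, at 448 to 988 against 2049 to 3074 (-1.85 ± 0.24) and Cry2 lower (-0.91 ± 0.24, limma adjusted p = 0.0509 without 41 and 43). With single libraries left out 0 or 1 clock genes were higher, and 3 were lower without chronic UVB 58 or unexposed 41 or 43. Of 18 unfolded protein and amino acid response genes 7 rose and 1 fell, among them the serine synthesis genes Psat1 (1.35 ± 0.28) and Phgdh (1.10 ± 0.20), and 4 rose without unexposed 43. Glycolysis genes split 4 and 4 of 17, with Eno1 higher (1.17 ± 0.21) and with 0 to 4 lower calls when single libraries were left out, fewest without chronic UVB 58 or unexposed 41. Of 20 respiratory chain genes 8 fell, Sdha by 1.04 on the log2 scale, with 5 without chronic UVB 28 or 29, 2 without unexposed 41 and 3 without 43. Of 16 complement and Fc receptor genes 4 fell, 2 without unexposed 45, and of 6 red cell genes 1 fell, a call lost in 6 of the 9 single-library omissions.

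By size alone, some of the strongest changes lay outside these families. Akr1d1, a steroid 5-beta-reductase gene known from liver, had 602, 852, 716, 852 and 165 normalised reads after chronic UVB, against 6.96, 0, 0 and 1.59 without UVB (8.02 ± 0.80, limma adjusted p = 2.77e-09). Tdh, which encodes threonine dehydrogenase, rose by 7.86 ± 0.81 (296 to 1174 against 0 to 6.41), Igfl3, of the insulin growth factor-like family, by 7.71 ± 0.81 (297 to 1006 against 0 to 6.36) and Tcf23, of the basic helix-loop-helix family, by 7.46 ± 0.88 (249 to 624 against 0 to 2.38). Wfdc12, a protease inhibitor gene of the whey acidic protein family, and Tmprss11d, a transmembrane serine protease gene, each rose by 7.23 on the log2 scale and had reads in 1 unexposed library each.

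The largest fall was that of Ifitm6, of the interferon-induced transmembrane family (chromosome 7, 141015699 to 141017924, minus strand, GRCm38). It had 20.6, 26.1, 25.1, 24.9 and 6.42 normalised reads after chronic UVB, against 2136, 2034, 965 and 1263 without UVB (-6.27 ± 0.94, limma adjusted p = 3.85e-06). All libraries after chronic UVB were low. Lyz1, the lysozyme gene (0.998 to 66.4 against 298 to 1309, -5.75 ± 0.96), and the gene listed as Retnia (18.2 to 469 against 2257 to 8087, -5.75 ± 1.04) also fell, with library 28 the highest after chronic UVB in both. Smaller falls were those of the pseudogenes Mrgprb11-ps (-5.63 ± 0.93) and Mrgprb9-ps (-5.59 ± 0.88), Mucl1, a mucin-like gene (-5.09 ± 0.85), the progesterone receptor gene Pgr (-4.58 ± 0.85), Il22ra2, the soluble decoy receptor of IL-22 (2.99 to 47.1 against 251 to 615, -4.53 ± 0.81), Il12rb2, an IL-12 receptor chain (-4.46 ± 0.68), the cation exchanger gene Slc24a3 (27.9 to 173 against 1105 to 1793, -4.40 ± 0.46) and Sema3d, a semaphorin (-4.32 ± 0.69). Clca1 fell by 4.49 on the log2 scale, and Gabrp, a GABA receptor subunit gene, by 5.05, with limma adjusted p of 0.0242, and of 0.0661 without chronic UVB 59 and 0.056 without unexposed 43. For Gabrp the limma adjusted p was also 0.123 without 41 and 43, 0.0776 without 44 and 45, and 0.112 without sample numbers of 46 or above.

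**Figure D4:**
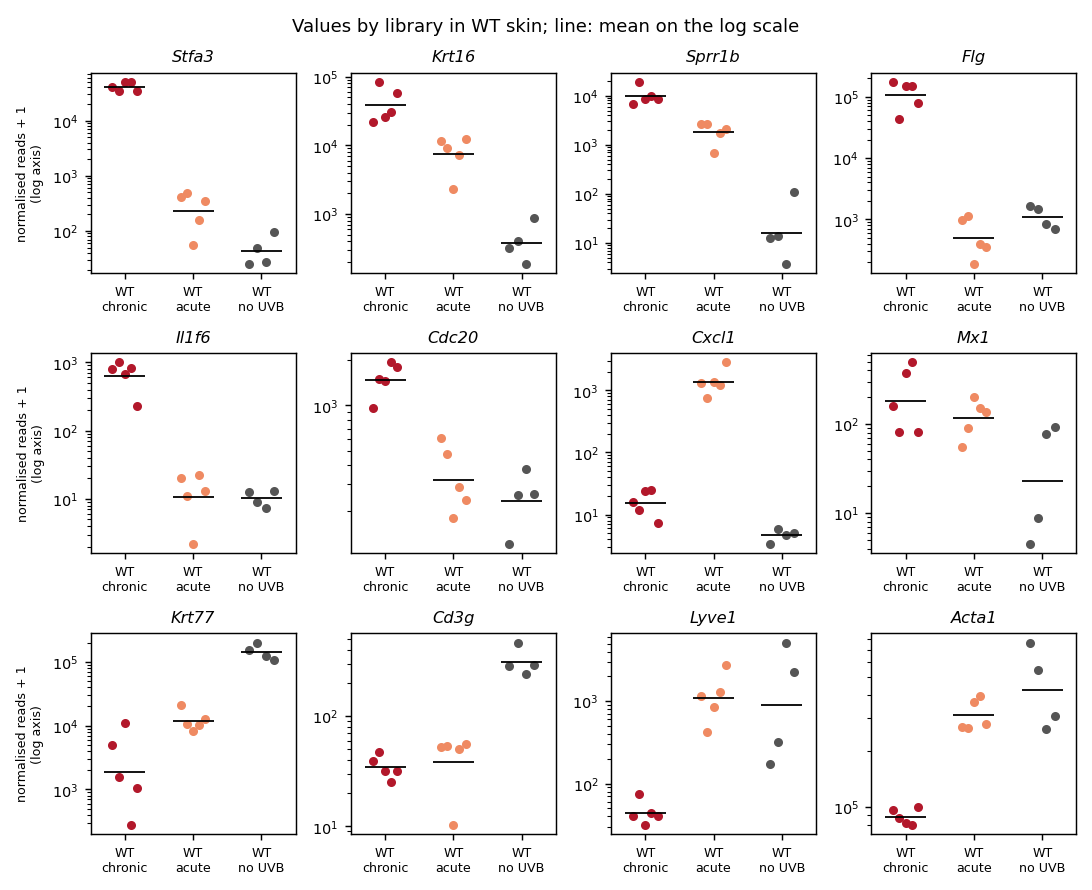
Normalised read counts plus 1 on log axes for 12 genes in each WT library after chronic UVB, after acute UVB and without UVB, with a line at the mean on the log scale. The 5 chronic UVB libraries were the highest in Stfa3, Flg and Il1f6 and the 5 acute UVB libraries in Cxcl1, and both kinds of UVB library were below all unexposed ones in Krt77 and Cd3g.

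The next comparison asked what 5 smaller daily exposures did that a single larger one did not, in skin taken at the same interval after the last exposure. Dose per exposure, number of exposures and the time since the first one all differ between these groups. Of 19170 genes, 3762 were higher after chronic than after acute UVB (19.6%) and 3391 were lower (17.7%), and these counts were 1630 and 1060 when the samples numbered 46 or above were left out. Both WT comparisons use the same 5 chronic UVB libraries, so their values are given side by side without being correlated.

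The 8 genes named for their excess over acute UVB were Sprr2a3, Flg and Rptn of the cornified envelope, the protease inhibitor genes Serpinb3a, Serpinb12, Stfa3 and Fetub, and Akr1d1. Serpinb3a had 167 to 820 normalised reads after chronic UVB and no reads in any acute UVB library (8.56 ± 0.88, limma adjusted p = 1.97e-09). Sprr2a3 had 2857 to 9048 after chronic UVB, against 9.70, 73.5, 0, 6.07 and 0 after acute UVB (9.79 ± 0.92), and 4 of these 5 acute UVB libraries were below the 40.3 to 304 of unexposed skin. Flg averaged 119489 ± 55402 after chronic UVB, 613 ± 428 after acute UVB (n = 5 each) and 1166 ± 465 without UVB (n = 4), a log2 difference of chronic to acute of 7.75 ± 0.74. Rptn (8.53 ± 0.79), Akr1d1 (8.61 ± 0.75), Serpinb12 (7.65 ± 0.78), Stfa3 (7.49 ± 0.69) and Fetub, which encodes the protease inhibitor fetuin B (7.16 ± 0.63), were higher after chronic UVB as well.

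The families differed in this comparison. All 14 group 1 late cornified envelope genes were higher after chronic than after acute UVB, with a median log2 difference of 5.45, as were 7 of 10 filaggrin-type genes, 23 of 28 cross-linking and shedding genes and 27 of 28 mitosis genes. Lce1g averaged 3622 ± 1709 after chronic UVB, 32.5 after acute UVB and 119 ± 39.1 without. Group 3 had 1 of 6 members higher and 1 lower, and the small proline-rich list 6 of 16 higher and 6 lower. Krt6a did not pass the test between the regimens, with means of 10279 after chronic and 10596 after acute UVB (-0.17 on the log2 scale), while Krt6b (3.76) and Krt16 (2.37) were higher after chronic UVB and Krt75 (-2.10) was lower.

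Neutrophil chemokine genes were lower after chronic than after acute UVB, while interleukin-1 family genes went both ways. Cxcl5, a neutrophil chemokine gene, had 2.94 to 17.1 normalised reads after chronic UVB and 582 to 3495 after acute UVB (-7.55 ± 1.12, limma adjusted p = 1.89e-06), and Cxcl1 had 6.42 to 23.9 against 760 to 2851 (-6.49 ± 0.71). Csf3, the granulocyte colony-stimulating factor gene, had 0 to 33.9 against 137 to 591 (-6.58 ± 0.88). The same held for Fgf23, a hormone of phosphate balance (-7.43 ± 1.05), the small GTPase gene Rrad (-6.77 ± 0.65), Nppb, a natriuretic peptide gene (-5.24 ± 0.80), the pentraxin gene Ptx3 (-5.09 ± 0.84) and Epgn, a growth factor of the EGF family (-5.0 ± 0.54). Of the 7 neutrophil chemokine genes 5 were lower after chronic than after acute UVB, as were 9 of 15 neutrophil genes, 14 of 26 p53 targets and 11 of 20 immediate-early and growth factor genes. In the IL-1 and IL-36 list, in contrast, 9 of 16 were higher after chronic than after acute UVB and 5 were lower, with a median log2 difference of 0.852. Against unexposed skin the limma adjusted p of the 8 genes named in this comparison as lower, from Cxcl5 to Epgn, lay between 0.0703 and 0.74. Of these, Cxcl1 and Cxcl5 passed in DESeq2 (adjusted p = 0.025 and 0.0221). Both also passed in limma when only the compared groups were fitted (adjusted p = 0.0116 and 0.00381).

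Genes of the epidermal T cells and of Langerhans cells did not pass the test between the regimens in most cases. Of 11 gamma-delta T cell genes 1 was higher and 1 lower. Of 18 Langerhans and dendritic cell genes none was higher and 4 were lower, with a median log2 difference of -0.358, beside 19.6% and 17.7% of all genes. The median of the 10 MHC class II genes was 0.145. Cd3g averaged 33.9 after chronic UVB, 43.5 after acute UVB and 319 without UVB. Muscle genes, in contrast, were lower after chronic than after acute UVB in 14 of 18, and Lyve1 had a mean of 45.2 after chronic UVB and 1296 after acute UVB.

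The last comparison was the difference between strains in the response to chronic UVB, that is, the WT difference between chronic UVB and no UVB minus the same difference in NZM skin. It was called for 783 genes with a more positive response in WT (4.08%) and for 671 with a more negative one (3.5%). These counts were 352 and 256 without the unexposed WT library 45, 470 and 422 without WT chronic UVB 29, 493 and 435 without NZM chronic UVB 55, 488 and 406 without 56, and 511 and 422 without unexposed NZM 34. The NZM libraries 17, 55 and 56 after chronic UVB held high hair follicle keratins, and without these 3 the counts were 184 and 168. Without the samples numbered 46 or above they were 41 and 21.

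The 8 genes named here with a more positive response in WT all had a lower mean without UVB in WT than in NZM skin. The unexposed values are part of the difference by which these 8 were chosen, so the choice favoured this pattern in advance. Stfa3 had 33817 to 50217 normalised reads in WT after chronic UVB and 24.4 to 94.5 in WT without, and 5232 to 38763 in NZM after chronic UVB and 402 to 1612 in NZM without (5.77 ± 1.00, limma adjusted p = 0.0006). Igfl3 averaged 547 and 2.13 in WT after chronic UVB and without UVB, and 229 and 114 in NZM (6.59 ± 1.12, limma adjusted p = 0.000518). Chil1 averaged 1456 and 35.5 in WT, and 1608 and 1509 in NZM (4.63 ± 0.83, limma adjusted p = 0.000849).

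Rptn averaged 83.7 in WT without UVB, against 815 in NZM without UVB (4.71 ± 1.15), and Serpinb3a averaged 2.18 against 532 (4.99 ± 1.29), and their calls were lost without the 3 NZM libraries of high hair keratins (adjusted p = 0.0833 and 0.136). Cxcl2 stood at 24.0 to 349 and 0 in WT after chronic UVB and without, and at 0 to 17.0 and 2.44 to 16.1 in NZM (7.28 ± 1.34, limma adjusted p = 0.00119). Cyp2g1, a cytochrome P450 gene (5.38 ± 1.05), and Slurp2, a secreted Ly6-type protein gene (4.72 ± 1.09), rose in WT and had mean values of 2861 and 322 in NZM after chronic UVB and of 4637 and 436 in NZM without. The call of Slurp2 was lost without the same 3 NZM libraries (adjusted p = 0.103). Among the lists, 8 of 28 cross-linking and shedding genes, 6 of 19 alarmins, 4 of 16 small proline-rich genes and 4 of 10 filaggrin-type genes had a more positive response in WT, above the 4.08% of all genes, and 1 of 28 mitosis genes did.

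Genes with a more negative response in WT included Lyz1, at 0.998 to 66.4 and 298 to 1309 in WT after chronic UVB and without, and at 33.1 to 192 and 38.1 to 109 in NZM (-6.24 ± 1.31, limma adjusted p = 0.00407). Spink7, a protease inhibitor gene, had 10.0 to 448 normalised reads in NZM after chronic UVB and no reads in NZM without, while 4 of 5 WT libraries after chronic UVB and all 4 without UVB had none (-7.09 ± 1.32, limma adjusted p = 0.00128, and adjusted p = 1 in edgeR). Bmp8a (-9.22 ± 2.05), Krt36, a hair keratin gene (-8.72 ± 2.47), Bhlha9 (-8.59 ± 2.62) and Dio3, a thyroid hormone deiodinase gene (-6.99 ± 2.21), were high in NZM chronic UVB libraries 17, 55 and 56, and none was called without them. Single-library omissions ended the call of Dio3 in 15 cases, of Bhlha9 in 11 and of Krt36 in 4. Retnia (-4.86 ± 1.44) lost its call when any 1 of 7 single libraries was left out and Fcna (-5.12 ± 1.56) when any 1 of 9 was, among them in both cases chronic UVB 27 and 59 and unexposed 44 and 45 of WT. Of 27 fibroblast and collagen genes 16 had a more negative response in WT, above the 3.5% of all genes, as did 7 of 18 adipocyte genes. Unexposed WT library 45, whose omission moved the total most, was also the highest of its group in fibroblast and adipocyte markers, and the part of that in these counts was not tested.

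**Figure D5:**
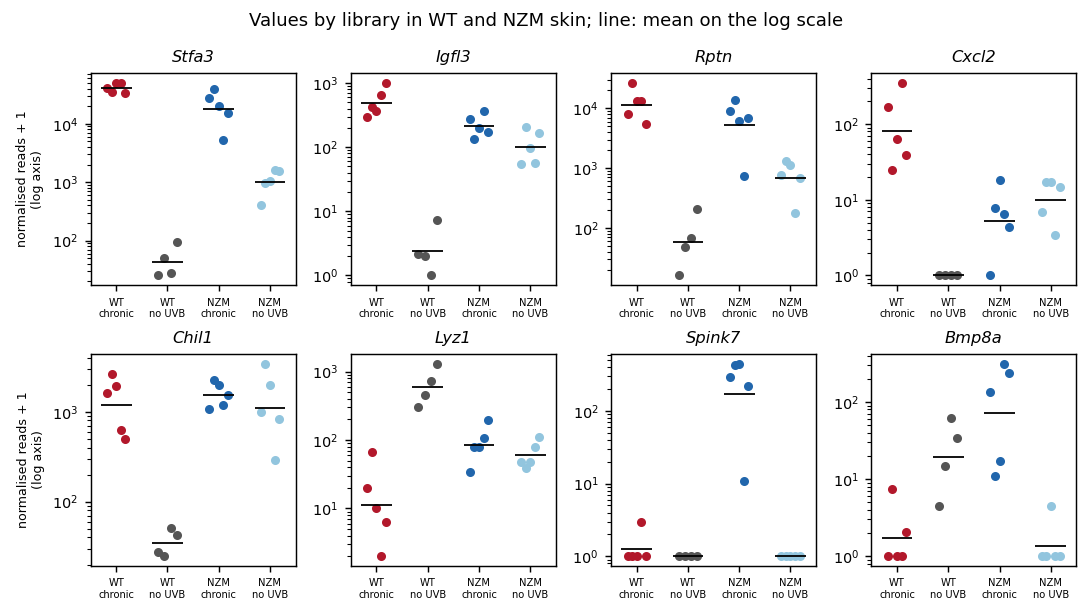
Normalised read counts plus 1 on log axes for 8 genes in WT and NZM libraries after chronic UVB and without UVB, with a line at the mean on the log scale. Stfa3, Igfl3, Rptn and Chil1 were lower in unexposed WT than in unexposed NZM skin, Cxcl2 had no reads in unexposed WT libraries, and Spink7 and Bmp8a had their highest values in NZM libraries after chronic UVB. The genes were chosen by the difference in response, which includes the unexposed values.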

How the data were processed

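Per the labels' protocols, RNA was poly-A selected from skin biopsies and sequenced as paired reads of 151 bases. STAR, HTSeq, DESeq2 and the build mm10 are named in the submitters' processing notes, where the versions, the gene annotation and the strand setting are not given in the sources used here. The values deposited by the authors are a normalised signal, namely read counts divided by a size factor for each library, and 100% of them are whole reads to a tolerance of 0.01, which gave the depth of each library, 18.49 to 37.76 M reads over all 43.

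Genes with a value of 10 or more in at least 4 of 43 libraries were tested with limma 3.58.1 (trend, R 4.3.3) on log2(value + 1), a scale that understates the change of low genes. All 43 libraries, fitted as 9 group means, shared 1 estimate of the spread. P-values were adjusted by Benjamini-Hochberg over 19170 genes in each of 3 comparisons, at a threshold of 0.05. The count test on the recovered reads was run with edgeR 4.0.16 and DESeq2 1.42.0 as alternatives; edgeR with the deposited size factors called 3562 genes higher and 3324 lower after chronic than without UVB. Replicates differed by a chi-square per gene of 15.0 or more, so no libraries were taken as copies. A floor of 3 reads covers counting error only. The steps were tested on simulated data.

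The genes and the 54 lists were chosen with earlier results of these data known. Named genes were the 15 of largest log2 difference in each direction between chronic and no UVB (8 in the other comparisons) among those called, reaching a mean of 100 in 1 of the groups and not overlapping between the groups (not asked of the difference between strains), without predicted gene models and receptor segments, then the 6 members of smallest adjusted p in each list or all of a short list, and the cell type markers. Of 406 such genes, 405 had a position in the GENCODE annotation of GRCm38. Promoters are those of RefSeq on GRCm38.p6, matched by symbol. Results on some named genes are not reported here.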

Additional observations from a re-analysis of the deposited data

Results flagged for a closer look

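Of 366 groups of 4 or 5 libraries examined, 41 held a library whose gap to its nearest neighbour was large for the range of its group. The limit used gives about 1 in 20 for independent values with a normal spread. Read counts of many genes in the same libraries need not be so, and the rate for them was not tested. Chronic UVB library 28 of WT accounted for 16. It was high in Krt6b (72975), Sprr1b (19207), Sprr2h (1583), Lce3f (264.7), Klk6 (7859) and Saa3 (611), in genes of macrophages, mast cells and fibroblasts, Lyve1 (72.97), C1qa (2748), Adgre1 (600.1), Cpa3 (1109), Col1a1 (30689) and Dcn (13412), and in Retnia (469.4), Lyz1 (66.44) and Mmp9 (252.7), and low in Sox9 (4814). Among the other chronic UVB libraries, 59 was low in Cd3e (10.7) and Ifitm6 (6.423), 58 high in Dct (10735) and 29 high in Clca1 (21.63). The acute UVB values were Akr1d1 (4.674) in 50, Sprr2a3 (73.45) in 15, Serpinb12 (54.34) in 13, and Fgf23 (1661) and Cxcl1 (2851) in 52, all high.

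Among the unexposed WT libraries, 45 was high in Stfa1 (1.589), Krt6b (485.5), Sprr1b (106.5), Lce3e (5.562) and Cxcl10 (52.44), and 43 in Ivl (1755), Tmprss11d (1.978) and Hlf (3074). Library 44 was high in Klk14 (27.47), Wfdc12 (0.9155), Gjb2 (639), Gpx2 (197.8), Pgr (726.9) and Tyms (606.1) and low in Egf (486.1) and Il6ra (2794). The values of Stfa1, Tmprss11d and Wfdc12 lie at the floor, where a few reads at most stood against none in the other unexposed libraries.

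In 16 named genes the response to chronic UVB differed between WT and NZM by the test of the difference itself. These 16 were taken from the genes called in that test, so that all of them passed was set by the choice. The log2 difference, WT minus NZM, was 5.77 in Stfa3, 6.59 in Igfl3, 4.71 in Rptn, 4.99 in Serpinb3a, 7.28 in Cxcl2, 5.38 in Cyp2g1, 4.72 in Slurp2 and 4.63 in Chil1. It was -4.86 in Retnia, -6.24 in Lyz1, -9.22 in Bmp8a, -8.72 in Krt36, -8.59 in Bhlha9, -7.09 in Spink7, -6.99 in Dio3 and -5.12 in Fcna.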

How the results depend on the processing

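No gene named here changed the sign of its difference in any alternative run, but the balance of calls did turn in places. Chronic against acute UVB had more lower than higher genes with TMM scaling (3509 higher and 3610 lower) and with edgeR and TMM (3464 and 3634). For WT chronic UVB against no UVB, leaving out each library gave 2786 to 3557 higher and 2530 to 3171 lower genes, with fewest without unexposed 45 and most without chronic UVB 28, and a threshold of 0.01 gave 2250 and 1962. With 41 and 43 left out, an alternative chosen after seeing the data, 2568 were higher and 2240 lower, and without 44 and 45, likewise, 2445 and 2255. Against acute UVB, leaving out each library gave 3263 to 3696 higher and 2903 to 3392 lower genes, leaving out sample numbers of 46 or above 1630 and 1060, and a threshold of 0.01 left 2120 lower.

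The difference between WT and NZM depended most on the processing. Its 783 more positive and 671 more negative genes became 1191 and 1339 with DESeq2, 1578 and 1510 with sample quality weights, 184 and 168 without NZM libraries 17, 55 and 56 (chosen after seeing the data), 41 and 21 without sample numbers of 46 or above, and 167 and 123 at a threshold of 0.01. Fitting only the compared groups gave 1074 and 1113, edgeR with TMM 775 and 899, and edgeR with the deposited size factors 796 and 886, so that with DESeq2, both edgeR fits and the compared groups alone more genes were negative than positive; leaving out each library gave 352 to 925 and 256 to 794, both fewest without unexposed WT 45 and most without chronic UVB WT 28. The cause was not tested, other than that leaving out samples leaves fewer. Igfl3, Cxcl2 and Chil1 kept their calls in every alternative run. Stfa3 (4.88, adjusted p = 0.0782) and Cyp2g1 (4.41, adjusted p = 0.0667) lost theirs only without sample numbers of 46 or above.

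Of 5352 alternative values of the 209 results on single genes named here, 5198 kept the side of the threshold, 139 lost the call and 15 gained it, and 40 of the 194 called results lost their call in at least 1 alternative. Of 2700 alternative counts of list members, 331 moved by over 1.5 times. No paired analysis was possible because the sample numbers in the labels are unique to each library. Depth, lower after chronic UVB (18.49 to 23.79 M) than without (24.44 to 29.51 M), limits genes of a few reads, such as Tcrg-V5 and Spink7.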
